A study of Mus musculus with 15 samples.

Results

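The liver releases hormone-like proteins into the blood, and 7 genes are described here across 3 feeding regimens: Fgf21, Angptl4, Gdf15, Inhbe, Ahsg and Fetub, which encode such proteins, and Creb3l3, which encodes the transcription factor CREBH. They were picked by gene name, and all 7 were found among the 35275 genes of the count table. All 7 also passed the filter on low counts, which left 13837 genes for testing. The left lateral liver lobe of C57BL/6 mice had been sequenced after every-other-day fasting with 24 h without food (EOD, 5 libraries), after intermittent fasting of 16 h (IF16, 5 libraries) or after feeding at will (AL, 5 libraries). Mice entered the experiment by random assignment at an age of 3 months and left it at 6 months, after 3 months on one regimen. No genetic change or drug is given for any group. The labels give neither the sex of the mice, nor the time from the last meal to harvest, nor whether each library is a separate animal. All p-values therefore measure only the variation among these libraries, of which some may be technical.

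Proteins of this kind are called hepatokines, and they act on other organs. CREBH is made as a membrane protein of the endoplasmic reticulum in liver and intestine, is cut in the Golgi by the proteases that also cut SREBP and ATF6, and its free part then enters the nucleus. In fasted mouse liver it works together with PPARα, the nuclear receptor for fatty acids, and Fgf21 is one of the genes both are known to drive. FGF21 signals through an FGF receptor joined to β-Klotho, ANGPTL4 blocks lipoprotein lipase, GDF15 acts on GFRAL neurons of the brainstem, and inhibin βE forms activin E. Fetuin-A (Ahsg) and fetuin-B (Fetub) are abundant plasma proteins of the cystatin superfamily. Fetuin-A binds mineral and inhibits the insulin receptor, and fetuin-B is needed for fertilisation in mice because it restrains a protease of the egg.

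Promoter sequences were available in RefSeq (GRCm38.p6) for 6 of the 7 genes, and 4 are shown because their letters differ at the kinds of element named above. Each is the 250 bases before the RefSeq start, 5′ to 3′ on the strand of the gene, and all 4 genes lie on the minus strand. They are chr7:45615491-45615740 for Fgf21, chr10:81098873-81099122 for Creb3l3, chr8:70632457-70632706 for Gdf15 and chr10:127351849-127352098 for Inhbe. Capitals mark a match to one of 6 searched motifs on either strand.
Fgf21: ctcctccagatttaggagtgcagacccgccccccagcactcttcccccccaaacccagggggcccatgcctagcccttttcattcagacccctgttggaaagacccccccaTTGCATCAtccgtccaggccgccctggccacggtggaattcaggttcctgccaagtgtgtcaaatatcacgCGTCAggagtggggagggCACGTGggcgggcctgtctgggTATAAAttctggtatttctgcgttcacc
Creb3l3: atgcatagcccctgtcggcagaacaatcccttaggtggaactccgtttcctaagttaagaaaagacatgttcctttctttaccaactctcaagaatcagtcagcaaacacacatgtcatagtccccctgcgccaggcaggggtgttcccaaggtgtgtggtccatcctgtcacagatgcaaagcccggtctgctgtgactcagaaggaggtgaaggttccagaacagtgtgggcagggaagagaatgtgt
Gdf15: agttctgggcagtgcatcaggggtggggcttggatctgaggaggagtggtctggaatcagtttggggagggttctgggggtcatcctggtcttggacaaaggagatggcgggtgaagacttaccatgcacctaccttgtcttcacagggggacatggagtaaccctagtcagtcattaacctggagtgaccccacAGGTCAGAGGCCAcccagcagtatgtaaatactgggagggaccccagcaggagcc
Inhbe: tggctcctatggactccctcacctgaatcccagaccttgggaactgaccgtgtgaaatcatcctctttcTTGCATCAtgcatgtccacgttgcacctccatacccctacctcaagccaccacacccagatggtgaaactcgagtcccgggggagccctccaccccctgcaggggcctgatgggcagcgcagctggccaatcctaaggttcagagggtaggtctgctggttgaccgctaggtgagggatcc
The motifs were TGACG (the half-site of the cAMP response element), TGACGTG (an element of the CREB3 family, which contains the half-site), TGATGNAA (a C/EBP-ATF element), the PPAR element (a direct repeat of the nuclear receptor half-site with a 1-base spacer), CACGTG (the E-box, which carbohydrate response elements contain in pairs) and TATAAA (the TATA box). In the Fgf21 sequence, the half-site lies 68 to 64 bases before the start and the C/EBP-ATF element at 139 to 132, both read on the opposite strand. The E-box lies at 50 to 45 and the TATA box at 28 to 23. Gdf15 holds a PPAR element 55 to 43 bases before its start, and Inhbe a C/EBP-ATF element at 181 to 174, also on the opposite strand. The Creb3l3 sequence and that of Ahsg held none of the 6, and Fetub held a TATA box. Among 32851 promoters of the same length, 17.8% held the half-site, 1.65% the CREB3-type element, 3.45% the C/EBP-ATF element, 0.338% the PPAR element, 6.02% the E-box and 12.4% the TATA box. Creb3l3, Gdf15 and Fetub have a further RefSeq start, not shown, whose sequences held a half-site, an E-box and a half-site. A match describes letters only, and says nothing about binding in these livers.

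Libraries held 29581097 to 37802749 counts in EOD, 31362642 to 38147534 in IF16 and 28129883 to 33383641 in AL. Values below are in CPM (counts divided by the TMM-adjusted library size), on which 3 counts correspond to 0.0786 to 0.107 CPM. AL replicates 4 and 5 stood apart by their acute phase transcripts: Saa1, serum amyloid A, had 2810 and 5610 CPM there and 14.9 to 167 CPM in the other 13 libraries. For the 7 genes, and for calls of other genes, the value without these AL libraries is also given where it ended a call or differed by over 1.5 times. Hepatocyte markers made up 102000 to 129000 CPM in EOD, 115000 to 144000 in IF16 and 95100 to 116000 in AL. Markers of sinusoidal endothelium summed to 288 to 366, 315 to 345 and 158 to 284 CPM in EOD, IF16 and AL. Of 12, 9 were higher in EOD and 7 in IF16 than in AL. That is 75.0% and 58.3% called, beside 35.2% and 3.50% of all genes. Without AL replicates 4 and 5, 9 and 6 were higher, and 1 was lower in EOD. The adipocyte list summed to 976 to 2230 CPM in EOD, 2250 to 3310 in IF16 and 2210 to 5660 in AL, nearly all of it Car3, which hepatocytes also express. Of its 3 tested genes, 2 were lower in EOD (66.7%) and 1 in IF16 (33.3%) than in AL. Of 5 tested without AL replicates 4 and 5, 4 and 3 were lower. One of them, Cfd, had 7.31 to 8.64 CPM in AL replicates 1 to 3 and 0.23 to 1.03 CPM in the other 12 libraries. Lep had no count outside AL replicates 1 and 3, and Adipoq had 37 and 72 counts in those and at most 14 in any other library. Mitochondrially encoded transcripts took 5.343 to 10.08% of the counts in EOD, 8.979 to 11.47% in IF16 and 10.01 to 15.07% in AL. The part of these differences in the results below was not tested. In such bulk tissue, fewer cells of a type and less RNA per cell cannot be told apart.

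The 7 genes spanned a wide range of levels. Levels between genes are compared here in FPKM (fragments scaled by gene length and library total), which the authors deposited. Ahsg averaged 4260 ± 217 FPKM in EOD, 3540 ± 306 in IF16 and 3390 ± 773 in AL (SD, n = 5), and ranked 18, 21 and 24 among all genes of the table in these groups. Fetub followed at 484 ± 71.4 FPKM in EOD, 527 ± 69 in IF16 and 449 ± 87.1 in AL. Creb3l3 came next at 143 ± 7.71 FPKM in EOD, 118 ± 4.68 in IF16 and 106 ± 4.52 in AL. Angptl4 averaged 101 ± 9.87 FPKM in EOD, 81.3 ± 17.3 in IF16 and 38.4 ± 14.4 in AL. The ranges of these 4 genes did not overlap in any group. Inhbe stood at 19.7 ± 5.06 FPKM in EOD, 17.1 ± 5.24 in IF16 and 26.7 ± 13 in AL. Fgf21 averaged 11.2 ± 3.35 FPKM in EOD, 5.99 ± 3.09 in IF16 and 2.19 ± 2.12 in AL, and Gdf15 9.6 ± 1.85 in EOD, 4.18 ± 2.7 in IF16 and 4.41 ± 2.34 in AL. The range of Inhbe overlapped that of Fgf21 in EOD and that of Angptl4 in AL. Fgf21 and Gdf15, at the bottom, overlapped in all 3 groups, and in AL Gdf15 had the higher mean. Ahsg alone made up 74.9 to 84.2% of the counts of the 7 genes, which took 0.475 to 0.838% of a library.

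**Figure D1:**
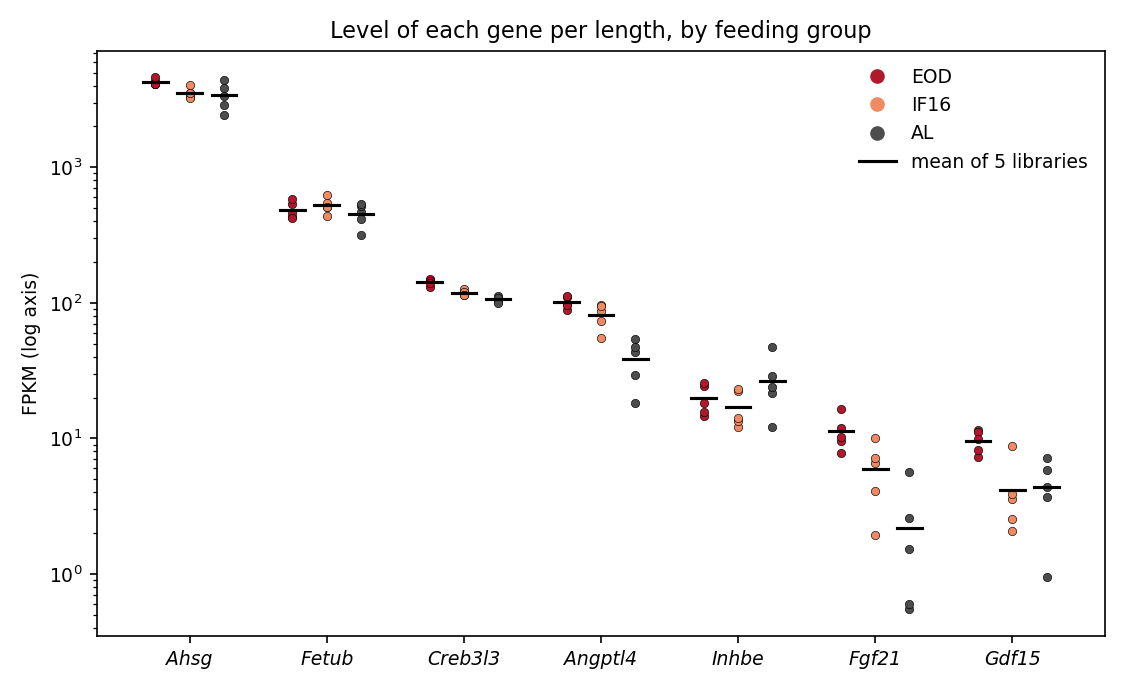
FPKM of the 7 genes in each library on a log axis, by gene and by group (EOD, IF16, AL; 5 libraries each). Ahsg lies far above the others in every library, and Fgf21 runs over the widest range, with AL at 0.55 to 5.67 FPKM.

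Counted against AL, 3 of the 7 genes rose in EOD (Fgf21, Angptl4 and Creb3l3) and none fell, at a Benjamini-Hochberg adjusted p below 0.05 in edgeR's quasi-likelihood test. Of all 13837 genes tested, 35.2% were called in EOD against AL, 17.6% higher and 17.6% lower, so a share of 3 in 7 is near the background. Of the 7, only Angptl4 rose in IF16 against AL, where 3.50% of all genes were called, 1.40% higher and 2.10% lower. Between EOD and IF16, only Creb3l3 was called, and it was higher in EOD, against 16.1% of all genes called, 7.96% higher and 8.15% lower. The median log2 fold change of the 7 genes was 0.44, 0.17 and 0.27 in these 3 comparisons, against -0.01, 0 and 0 over all genes tested. The comparisons of EOD and of IF16 with AL share the 5 AL libraries. Without AL replicates 4 and 5, 5 of the 7 genes were called higher in EOD than in AL (30.3% of all genes called), with Gdf15 and Ahsg added, and again only Angptl4 in IF16 (2.59% called).

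**Figure D2:**
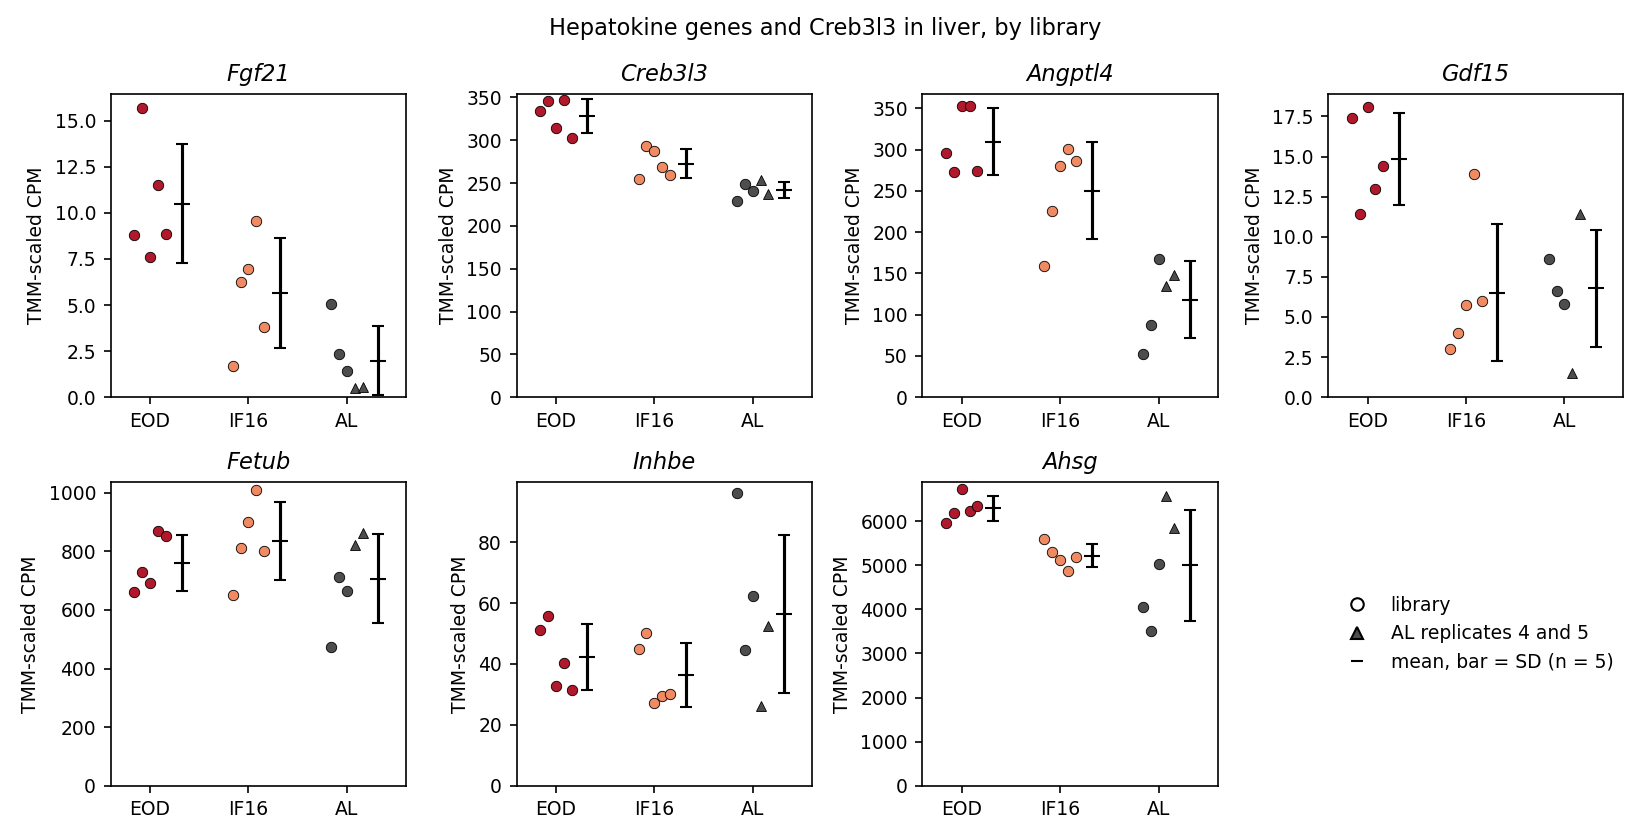
CPM of each gene in every library, 1 panel per gene with its own scale, with groups in the order EOD, IF16 and AL, the mean and its SD, and AL replicates 4 and 5 drawn as triangles. EOD lies wholly above AL for Fgf21, Creb3l3 and Angptl4. For Gdf15 the lowest EOD and the highest AL library are equal when rounded. Fetub and Inhbe overlap in all 3 groups. The share of all tested genes whose EOD libraries lie wholly above AL was not counted.

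**Figure D3:**
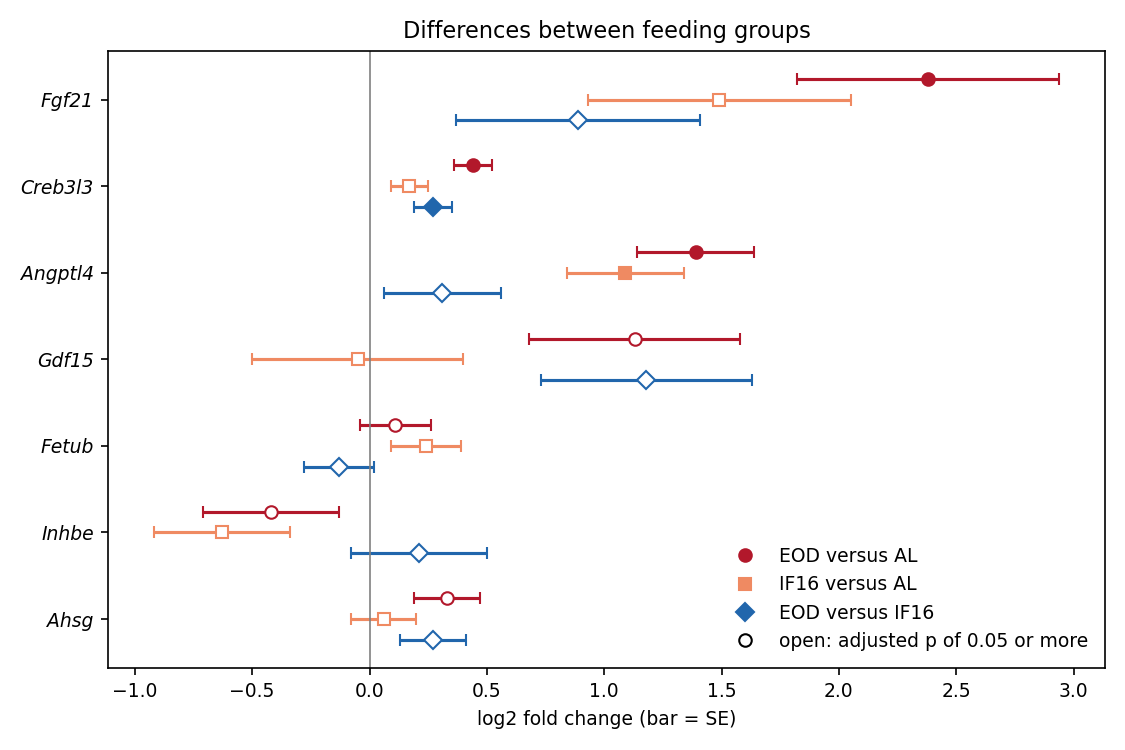
Log2 fold changes of the 7 genes with their SE in the 3 comparisons, from edgeR's fit, with open symbols where the adjusted p is 0.05 or more. Fgf21 has the largest value, 2.38 in EOD against AL, and Fetub stays within 0.24 of zero in all 3.

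Creb3l3 (ENSMUSG00000035041, mm10 chromosome 10, 81084324 to 81098874, minus strand, 12 exons in its main transcript) varied little within a group. It had 334, 346, 314, 347 and 302 CPM in EOD, 255, 293, 287, 269 and 259 CPM in IF16 and 229, 249, 241, 253 and 237 CPM in AL. No EOD library overlapped IF16 or AL, and every IF16 library lay above every AL library. How many of all tested genes separate between groups was not counted, here or for the genes below. The coefficient of variation was 6.1% in EOD, 6.08% in IF16 and 3.9% in AL. Creb3l3 rose 1.36-fold in EOD against AL (log2 0.44, SE 0.08, adjusted p = 0.000585) and 1.21-fold in EOD against IF16 (log2 0.27, SE 0.08, adjusted p = 0.0318). The IF16 livers differed from AL by a log2 value of 0.17 (SE 0.08, interval 0 to 0.35), which missed the threshold over all genes (adjusted p = 0.264). Leaving out IF16 replicate 1, 4 or 5, or EOD replicate 1, 2 or 4, ended the call between EOD and IF16 (adjusted p up to 0.0836), as did a fit with no filter on low counts (adjusted p = 0.096).

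CREBH becomes active only once cut. The list around its processing held 12 tested genes. These cover its proteases and carriers, its relatives, and quality control and stress factors of the endoplasmic reticulum. Of the 12, 2 fell and none rose in EOD against AL (median log2 -0.21). That is 16.7% called, beside 35.2% of all genes. Creb3l2, a relative of CREBH that is prominent in secretory cells, fell to 9 CPM in EOD, against 17.2 CPM in AL (log2 -0.93, SE 0.22, adjusted p = 0.00359), and it was also lower in EOD than in IF16 (log2 -1.04, SE 0.22, adjusted p = 0.00459). Os9, a lectin of protein quality control, fell by 0.34 on the log2 scale (adjusted p = 0.0205), but was not called when AL replicate 4, AL replicate 5 or EOD replicate 4 was left out. Without AL replicates 4 and 5 together its log2 value was -0.18. Mbtps1, the site-1 protease that cuts CREBH, had 33.9 CPM in EOD and 34.9 CPM in AL (log2 -0.04, adjusted p = 0.799), a gene chosen after its values were seen. None of the 12 passed in IF16 against AL by edgeR or by DESeq2, with 2 at an unadjusted p below 0.05.

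Of 20 tested genes linked to CREBH as targets in mouse liver, 5 rose and 6 fell in EOD against AL (median log2 -0.21). That is 55.0% called, beside 35.2% of all genes. The 6 that fell include enzymes of fatty acid synthesis: Elovl6, an elongase, fell to 12.8 CPM in EOD, against 157 CPM in AL (log2 -3.62, SE 0.4, adjusted p = 2.28e-05), and Acacb, which makes the malonyl-CoA that restrains fatty acid uptake by mitochondria, to 7.26 CPM, against 58.7 CPM (log2 -3.01, SE 0.34, adjusted p = 2.21e-05). Fads1, a desaturase, fell to 213 CPM in EOD, against 413 CPM in AL. Apoa5, an activator of triglyceride clearance that is also counted below, rose to 2470 CPM in EOD, against 1630 CPM in AL (log2 0.6, SE 0.14, adjusted p = 0.00291). In IF16 against AL, 1 fell (Cidec, a lipid droplet protein, log2 -1.6, SE 0.32, adjusted p = 0.0116) and none rose. Without AL replicates 4 and 5, 21 genes of this list passed the filter. Of these, 4 rose and 8 fell in EOD, and none rose and 4 fell in IF16.

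Fgf21 (ENSMUSG00000030827, chromosome 7, 45613907 to 45615490, minus strand, 3 exons) varied widely within a group and had the largest rise of the 7 in EOD. It had 8.79, 15.7, 7.61, 11.5 and 8.87 CPM in EOD, 1.71, 6.26, 6.94, 9.55 and 3.81 CPM in IF16 and 5.04, 2.35, 1.44, 0.518 and 0.574 CPM in AL. Every EOD library lay above every AL library, while IF16 overlapped both. In AL the counts were 176, 68, 44, 15 and 17, so the lowest libraries still stood above 3 counts. AL replicates 4 and 5, high in acute phase transcripts, were the lowest of the 15. Fgf21 rose 5.22-fold in EOD against AL (log2 2.38, SE 0.56, adjusted p = 0.00523). Without AL replicates 4 and 5 its log2 value was 1.85 (adjusted p = 0.0145). IF16 exceeded AL by a log2 value of 1.49 (SE 0.56, interval 0.27 to 2.71), which did not pass (adjusted p = 0.167). That value was 0.94 without AL replicates 4 and 5 (adjusted p = 0.372) and 2.21 without AL replicate 1, when it passed (adjusted p = 0.0363). EOD and IF16 were 0.89 apart on the log2 scale (SE 0.52, interval -0.25 to 2.03, adjusted p = 0.267), so neither a like level nor a large gap is shown between the fasting regimens.

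Among the liver's own FGF receptor genes, 3 fell in EOD against AL, while the co-receptor gene Klb rose. Of 8 listed genes, 5 passed the filter, and 80.0% of these were called, beside 35.2% of all genes. Fgfr2, chosen after its values were seen, was not called, but was higher without AL replicates 4 and 5 (log2 0.51, adjusted p = 0.0156). Klb, the β-Klotho co-receptor of FGF21, rose to 14.9 CPM in EOD, against 9.78 CPM in AL (log2 0.61, SE 0.13, adjusted p = 0.00128), and was also higher in EOD than in IF16, where it had 8.02 CPM (log2 0.9, SE 0.13, adjusted p = 0.000176). Fgfr1, the receptor that FGF21 uses in fat, fell to 2.75 CPM in EOD, against 10 CPM in AL (log2 -1.87, SE 0.3, adjusted p = 0.000213). It also fell in IF16, to 3.57 CPM (log2 -1.48, SE 0.29, adjusted p = 0.0101), a value of -0.81 that missed the threshold without AL replicates 4 and 5 (adjusted p = 0.051). In EOD against AL that leave-out gave -1.18 (adjusted p = 0.000835). Fgfr3 fell to 14.3 CPM in EOD, against 33 CPM in AL (log2 -1.21, SE 0.16, adjusted p = 3.64e-05), and Fgfr4, chosen after its values were seen, fell by 0.43 on the log2 scale (adjusted p = 0.00632). Fgf15 and Fgf23 had no count in any library.

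Angptl4 (ENSMUSG00000002289, chromosome 17, 33773750 to 33781575, minus strand, 7 exons) was the only one of the 7 to pass in both comparisons with AL. It had 296, 273, 353, 353 and 274 CPM in EOD, 159, 226, 280, 301 and 286 CPM in IF16 and 52.9, 87.1, 167, 135 and 148 CPM in AL. All EOD libraries lay above AL, and only IF16 replicate 1 lay within the AL range. Angptl4 rose 2.63-fold in EOD (log2 1.39, SE 0.25, adjusted p = 0.000692) and 2.12-fold in IF16 (log2 1.09, SE 0.25, adjusted p = 0.0253). EOD against IF16 gave a log2 value of 0.31 (SE 0.25, interval -0.23 to 0.85, adjusted p = 0.432). The IF16 call ended without AL replicate 2 or IF16 replicate 2, 3, 4 or 5, with no filter on low counts and with those 2 groups fitted alone (adjusted p of 0.0506 to 0.0753). AL replicates 1 to 3, the libraries with high Cfd, had 52.9, 87.1 and 167 CPM of Angptl4 and so spanned the AL range.

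Of 15 genes that act on or around lipoprotein lipase, 5 rose and 4 fell in EOD against AL (median log2 -0.17). That is 60.0% called, beside 35.2% of all genes. Gm6484 is listed by RefSeq as Angptl8, a secreted protein made after feeding that restrains lipoprotein lipase. In EOD, a comparison chosen for it after its values were seen, it fell to 47.7 CPM, against 153 CPM in AL (log2 -1.69, SE 0.4, adjusted p = 0.00556). It also fell in IF16, to 39.4 CPM (log2 -1.96, SE 0.41, adjusted p = 0.0173), but was not called when IF16 replicate 3 or 5 was left out (adjusted p of at most 0.0528). Gpihbp1, which holds lipoprotein lipase on capillary endothelium and stands among the endothelial markers above, rose to 21.7 CPM in EOD and 19.7 CPM in IF16, against 10.5 CPM in AL (log2 1.04 and 0.9, adjusted p = 0.00038 and 0.0101). Lmf1, a maturation factor of the lipase in the endoplasmic reticulum, fell to 34.8 CPM in EOD, against 57.9 CPM in AL (log2 -0.74, SE 0.09, adjusted p = 2.47e-05). In IF16 against AL, Gpihbp1 and Gm6484 were the only ones called, 13.3% of the list beside 3.50% of all genes.

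Gdf15 (ENSMUSG00000038508, chromosome 8, 70629393 to 70632456, minus strand, 2 exons) was high in all EOD libraries and did not pass in any comparison. It had 17.4, 11.4, 18.1, 13 and 14.4 CPM in EOD, 3.03, 4, 5.72, 13.9 and 5.97 CPM in IF16 and 8.62, 6.6, 5.81, 1.49 and 11.4 CPM in AL. No EOD library overlapped AL, although the lowest of EOD and the highest of AL were equal when rounded, and IF16 replicate 4 reached into EOD. EOD exceeded AL by a log2 value of 1.13 (SE 0.45, interval 0.16 to 2.1, adjusted p = 0.0631) and EOD exceeded IF16 by 1.18 (SE 0.45, interval 0.21 to 2.15, adjusted p = 0.0845). IF16 and AL differed by -0.05 (SE 0.45, interval -1.03 to 0.92, adjusted p = 0.967), or by -0.1 without AL replicates 4 and 5 (adjusted p = 0.926). The EOD value against AL passed in 8 of 27 alternatives, among them without AL replicates 4 and 5 (log2 1.11, adjusted p = 0.0412), without AL replicate 5 (log2 1.4, adjusted p = 0.0364) and with limma on deposited FPKM (adjusted p = 0.0236). Against IF16 it passed in 5, with a log2 value of 1.68 without IF16 replicate 4 (adjusted p = 0.0166).

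Gdf15 is known as a target of the integrated stress response and of p53. Of 23 tested genes of the ATF4 arm, 2 rose and 3 fell in EOD against AL, a share of 21.7% called beside 35.2% of all genes, and the median log2 value was -0.08. The count was 1 higher and 2 lower without AL replicates 4 and 5. Cth, which makes cysteine, rose to 779 CPM in EOD, against 456 CPM in AL (log2 0.77, SE 0.13, adjusted p = 0.000251). Shmt2, a mitochondrial enzyme of serine metabolism, fell to 141 CPM, against 206 CPM (log2 -0.55, SE 0.09, adjusted p = 0.000241). In IF16 against AL, Sesn2, a leucine sensor of the mTORC1 pathway, rose to 12.3 CPM, against 6.42 CPM in AL (log2 0.93, SE 0.14, adjusted p = 0.00164). Of 7 tested genes around the receptor and p53, 1 rose and 1 fell in EOD against AL, 28.6% called beside 35.2% of all genes. Cdkn1a, the p21 cell cycle inhibitor, rose to 21.8 CPM in EOD, against 2.42 CPM in AL (log2 3.17, SE 0.63, adjusted p = 0.00179). Trp53 itself fell to 14.7 CPM, against 26.2 CPM (log2 -0.83, SE 0.16, adjusted p = 0.000673), a value of -0.52 without AL replicates 4 and 5 (adjusted p = 0.00758). Gfral, the GDF15 receptor, had no count in any library.

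Inhbe (ENSMUSG00000047492, chromosome 10, 127349402 to 127351772, minus strand, 2 exons) was the only one of the 7 whose fitted value lay below AL in both regimens, and neither value passed. It had 51.3, 55.7, 32.7, 40.4 and 31.4 CPM in EOD, 45, 50.3, 27.3, 29.4 and 30.2 CPM in IF16 and 96.3, 44.7, 62.3, 26.2 and 52.5 CPM in AL. The groups overlapped throughout, and AL held both the highest and the lowest library. The log2 value was -0.42 in EOD (SE 0.29, interval -1.05 to 0.21, adjusted p = 0.281) and -0.63 in IF16 (SE 0.29, interval -1.26 to 0, adjusted p = 0.257). EOD against IF16 gave 0.21 (SE 0.29, adjusted p = 0.658). The values against AL moved with the AL libraries used: they were -0.11 in EOD and -0.35 in IF16 without AL replicate 1, and -0.65 and -0.89 without AL replicates 4 and 5, none of them called (adjusted p of 0.77, 0.532, 0.079 and 0.0968). An antisense gene of the annotation overlaps Inhbe, and its reads could be mixed in, since no source used here gives the strand mode of counting. Among 14 tested genes of activin signalling, 3 rose and 2 fell in EOD against AL, 35.7% called and so at the background. Smad4, the shared SMAD partner, rose to 22.9 CPM, against 14.1 CPM (log2 0.7, SE 0.13, adjusted p = 0.000675). Bambi, a decoy receptor, rose to 3.99 CPM, against 1.85 CPM (log2 1.1, SE 0.25, adjusted p = 0.00271), and Acvr1b, a type I activin receptor, fell to 5.21 CPM, against 9.07 CPM (log2 -0.8, SE 0.2, adjusted p = 0.00587). In IF16 none of the 14 passed in edgeR, 3 had an unadjusted p below 0.05, DESeq2 called 1 higher, and edgeR without AL replicates 4 and 5 called 1 higher and 1 lower. Inhbc, a close relative of Inhbe that was chosen after its values were seen, had 90.9 CPM in EOD and 73.6 CPM in AL (log2 0.3, adjusted p = 0.135).

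The fetuin genes lie side by side on chromosome 16 and on the same strand, 18943 bases apart. Ahsg (ENSMUSG00000022868, 22892042 to 22899438, 7 exons) had 5970, 6190, 6730, 6240 and 6340 CPM in EOD, 5600, 5310, 5130, 4870 and 5180 CPM in IF16 and 4050, 3510, 5020, 6580 and 5850 CPM in AL. All EOD libraries lay above IF16, and AL ran from below IF16 into EOD, with its highest values in AL replicates 4 and 5. The coefficient of variation was 4.39% in EOD, 5.1% in IF16 and 25.2% in AL. EOD exceeded AL by a log2 value of 0.33 (SE 0.14, interval 0.03 to 0.63), which missed the threshold (adjusted p = 0.0696). Without AL replicates 4 and 5 it was 0.61 and passed (adjusted p = 0.00146), with AL replicates 1 to 3 at 4190 ± 767 CPM. IF16 against AL gave 0.06 (SE 0.14, interval -0.24 to 0.36, adjusted p = 0.865), or 0.32 without AL replicates 4 and 5 (adjusted p = 0.171), and EOD against IF16 0.27 (SE 0.14, interval -0.03 to 0.57, adjusted p = 0.189). An antisense gene also overlaps Ahsg.

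Fetub (ENSMUSG00000022871, 22918382 to 22939766, 8 exons) did not pass in any comparison. It had 660, 729, 692, 871 and 854 CPM in EOD, 651, 812, 901, 1010 and 800 CPM in IF16 and 475, 714, 663, 820 and 864 CPM in AL. The 3 groups overlapped. Its log2 value was 0.11 in EOD against AL (interval -0.22 to 0.44, adjusted p = 0.611), 0.24 in IF16 against AL (interval -0.09 to 0.57, adjusted p = 0.432) and -0.13 in EOD against IF16 (interval -0.46 to 0.2, adjusted p = 0.591). Leaving out AL replicates 4 and 5 gave 0.33 in EOD and 0.44 in IF16 against AL, and leaving out AL replicate 1 gave 0.01 and 0.12, none of them called (adjusted p of 0.127, 0.163, 0.954 and 0.69). The ratio of Ahsg to Fetub in FPKM was 8.93 ± 1.15 in EOD, 6.86 ± 1.49 in IF16 and 7.65 ± 1.51 in AL (SD, n = 5), with ranges that overlapped. Downstream of Fetub lie the genes of other plasma proteins with cystatin domains. Hrg, histidine-rich glycoprotein, rose to 984 CPM in EOD, against 761 CPM in AL (log2 0.37, SE 0.1, adjusted p = 0.0071), and Kng2, a kininogen, to 331 CPM, against 253 CPM (log2 0.39, SE 0.1, adjusted p = 0.00744). Kng1, the next kininogen gene and one chosen after its values were seen, had 2650 CPM in EOD and 2620 CPM in AL (log2 0.02, adjusted p = 0.909). Of 7 tested genes of this list, the fetuins included, 3 rose in EOD against AL: Hrg, Kng2 and Cstb. That is 42.9% called, beside 35.2% of all genes. Cstb lost its call in 14 of 27 alternatives, among them without AL replicates 4 and 5 (log2 0.52, adjusted p = 0.0696). In that leave-out Ahsg was called beside Hrg and Kng2. None of the list passed in IF16 against AL in edgeR (2 at an unadjusted p below 0.05, 1 higher in DESeq2, and 1 higher in edgeR without AL replicates 4 and 5).

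For comparison, 24 other genes for secreted factors were tested. In EOD against AL 7 rose and 8 fell, 62.5% called beside 35.2% of all genes, with a median log2 value of -0.17 that was 0.07 without AL replicates 4 and 5 (7 higher, 6 lower). Igfbp2, which binds insulin-like growth factors, rose to 1260 CPM in EOD and 720 CPM in IF16, against 336 CPM in AL. Its log2 values were 1.91 in EOD against AL (SE 0.16, adjusted p = 2.74e-07), 1.1 in IF16 against AL (SE 0.15, adjusted p = 0.000793) and 0.81 in EOD against IF16 (SE 0.15, adjusted p = 0.00182), so that it passed in all 3 comparisons. Rbp4, the carrier of retinol in plasma, rose to 6730 CPM in EOD, against 4070 CPM in AL (log2 0.73, SE 0.11, adjusted p = 0.000137). Lect2, a chemotactic factor, fell to 85.2 CPM in EOD, against 157 CPM in AL (log2 -0.88, SE 0.13, adjusted p = 8.89e-05), and was lower in EOD than in IF16 (log2 -0.99, SE 0.13, adjusted p = 0.00012). In IF16 against AL, 3 rose and 1 fell, 16.7% called beside 3.50% of all genes. Fgf1, a growth factor of the same family as Fgf21, rose to 68.3 CPM in IF16, against 49.6 CPM in AL (log2 0.46, SE 0.09, adjusted p = 0.00683).

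**Figure D4:**
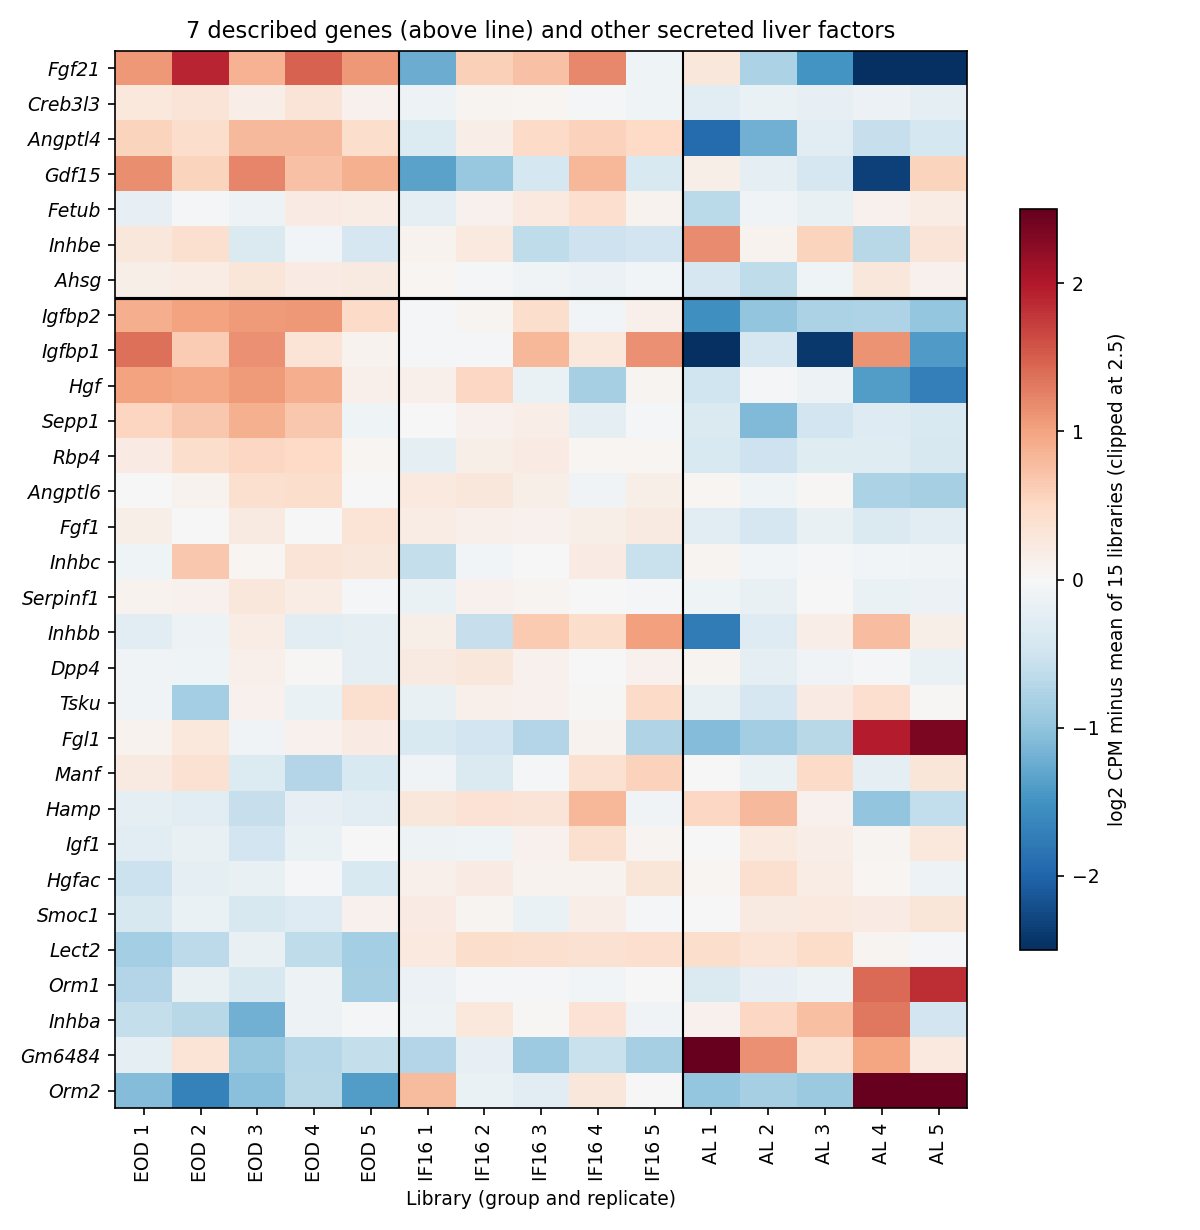
Log2 CPM of the 7 genes (above the line) and of 23 of the 24 other tested genes for secreted factors, each centred on its mean over the 15 libraries (columns, in the order EOD, IF16, AL). Of the 7 genes, all but Fetub and Inhbe are above their means in every EOD library, as are some of the others, such as Igfbp2 and Rbp4. The acute phase proteins Orm1 and Orm2 are high in AL replicates 4 and 5.

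PPARα switches on the burning of fatty acids in fasted liver. Of 30 genes of the PPARα list, 23 rose and 1 fell in EOD against AL (80.0% called, median log2 0.98). In IF16 against AL, 5 rose (16.7% called, median 0.35). Between EOD and IF16, 17 were higher and 1 lower in EOD (60.0% called, median 0.75). Of all genes, 35.2%, 3.50% and 16.1% were called in these comparisons, in the same order. Ppara, chosen after its values were seen, rose to 47.1 CPM in EOD, against 25 CPM in AL (log2 0.92, SE 0.11, adjusted p = 1.93e-05), and to 35.2 CPM in IF16 (log2 0.49, SE 0.11, adjusted p = 0.0222). The IF16 call of Ppara ended without AL replicates 4 and 5 (log2 0.34, adjusted p = 0.109), while the EOD call held (log2 0.79, adjusted p = 0.000117). Cyp4a31, an ω-hydroxylase of fatty acids with close paralogs that could share reads, rose to 24.6 CPM in EOD, against 1.64 CPM in AL (log2 3.9, SE 0.29, adjusted p = 2.73e-07). Acot1, which frees fatty acids from CoA, rose to 184 CPM in EOD and 38.9 CPM in IF16, against 10.4 CPM in AL (log2 4.14 and 1.89, adjusted p = 1.84e-06 and 0.00561). Plin5, a lipid droplet coat protein, rose to 116 CPM in EOD, against 27 CPM in AL (log2 2.1, SE 0.22, adjusted p = 4.26e-06). Without AL replicates 4 and 5 the IF16 count of the list was 2 higher and 1 lower.

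ChREBP, the glucose-responsive factor, is another known driver of Fgf21 in the fed liver. Of 14 genes of its list, 8 fell and 1 rose in EOD against AL (64.3% called, median log2 -0.84), and 7 were lower in EOD than in IF16 (median -0.62). Dak, an older symbol of the triokinase gene of fructose metabolism, fell to 143 CPM in EOD, against 689 CPM in AL (log2 -2.27, SE 0.13, adjusted p = 8.43e-09). Acaca and Acly, which supply malonyl-CoA and acetyl-CoA for fatty acid synthesis, fell by 2.34 and 2.54 on the log2 scale (SE 0.22 and 0.28, adjusted p = 2.55e-06 and 1.15e-05). In IF16 against AL, 1 gene rose and none fell, 7.14% called beside 3.50% of all genes. The gene was Txnip, a thioredoxin-binding arrestin, with a log2 value of 1.64 (SE 0.33, adjusted p = 0.0147). Its value was 1.32 and no longer called without AL replicates 4 and 5 (adjusted p = 0.0612). That leave-out gave none higher and 3 lower in IF16. Some genes stand in more than 1 of these lists.

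**Figure D5:**
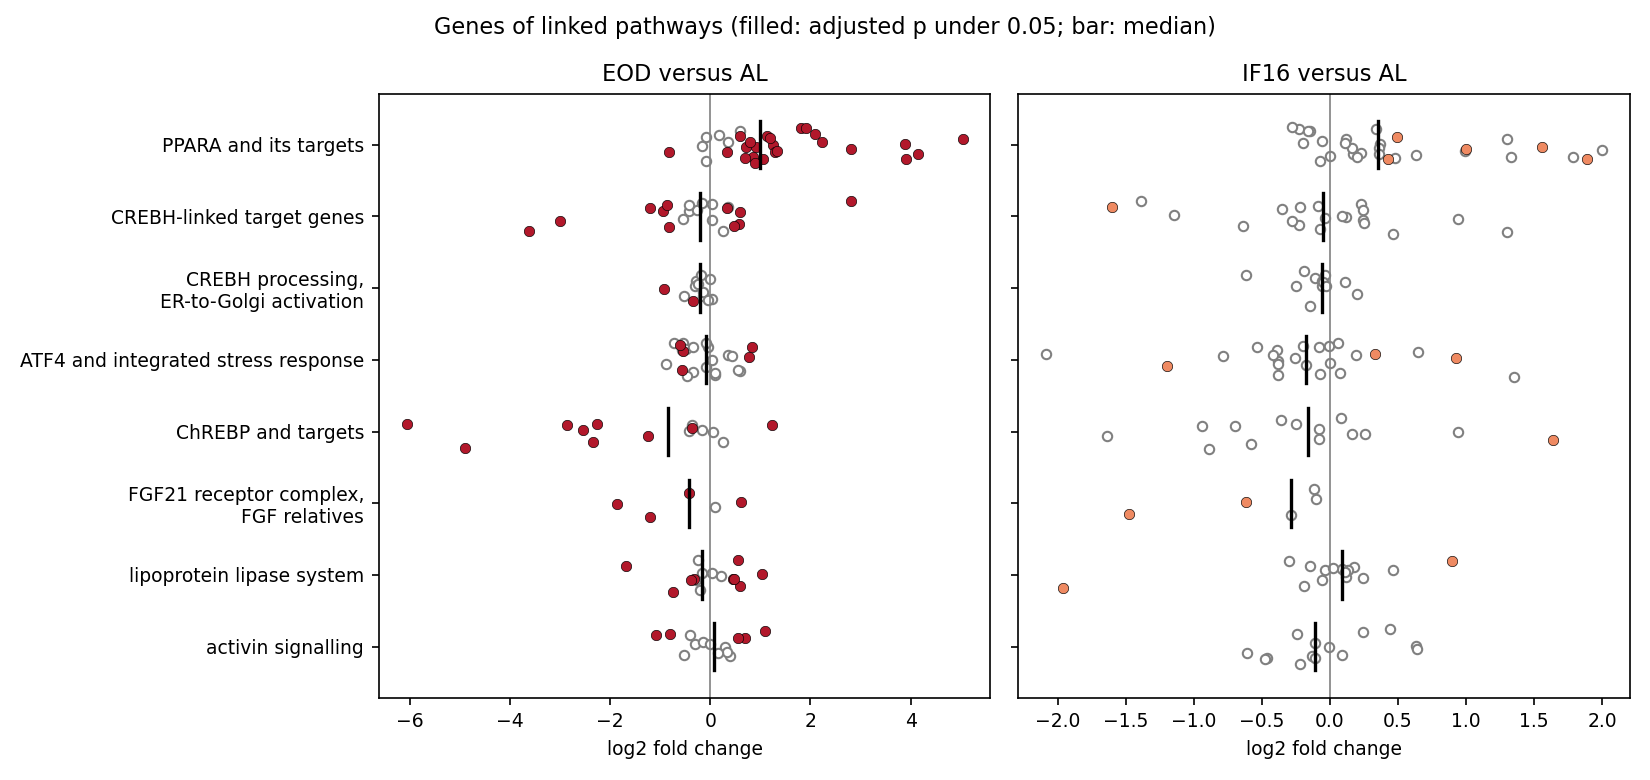
Log2 fold changes of the tested genes of 8 gene lists linked to the 7 genes, in EOD against AL and in IF16 against AL, 1 point per gene, with axes of different width in the panels. In EOD the PPARα list has a median of 0.98 and the ChREBP list one of -0.84.

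For each of the 3 genes that passed in any comparison, the 3 protein-coding genes with the most similar profile were taken by the mean absolute difference of centred log2 CPM over the 15 libraries, out of 12249 compared. Closest to Fgf21 were Serpinb1a (0.45), Acot2 (0.45) and Arntl (0.5), where the median over all compared genes was 1.24. Acot2 is a mitochondrial acyl-CoA thioesterase and stands in the PPARα list, and Arntl is the core clock gene BMAL1. Their log2 values in EOD against AL were 2.58, 1.82 and 3.55, and in IF16 against AL 0.91, 0.99 and 2.35. Closest to Creb3l3 were Ncbp2 (0.06), Ngrn (0.06) and Imp3 (0.07), against a median of 0.29. Closest to Angptl4 were Slc17a1 (0.26), a phosphate transporter, Dclre1b (0.27), a nuclease of DNA repair, and Pllp (0.28), a membrane proteolipid, against a median of 0.67. This likeness is over libraries that share the contrast between regimens, so it is a description of profiles only.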

How the data were processed

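The members and gene lists were chosen with earlier results of these data known. Per the labels' protocols, poly-A RNA of the left lateral lobe was made into NEBNext Ultra libraries. The submitters' processing notes name STAR 2.5, HTSeq 0.6.1, DESeq2 and build mm10 but assign them no role, and no source used here gives the strand mode. The authors deposited raw counts per Ensembl gene and FPKM values. The deposited FPKM equal the count scaled by gene length and library total in 100% of values at a relative tolerance of 1e-08. Names were matched for 34490 of 35275 identifiers, and 12666 genes had no count.

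The count analysis used edgeR 4.0.16 under R 4.3.3, with filterByExpr (minimum count 10), TMM, 15 libraries in 1 fit with a mean per group, and robust quasi-likelihood F tests. Adjusted p-values are Benjamini-Hochberg over the 13837 genes tested, with a threshold of 0.05. Each SE is the log2 fold change over the square root of F, and intervals are 95% on 12 degrees of freedom. The fit was tested on simulated data with known changes. For all 30 pairs of libraries of 1 group, chi-square divided by its degrees of freedom was 24.4 to 214, so none was merged. From each list, up to 3 genes with the smallest p among those past the threshold could be named in each comparison. Not all of these are printed. Any other gene whose test is given is marked as picked later. Alternatives were other scalings, other filters, DESeq2 1.42.0, limma 3.58.1 on log2 of FPKM plus 1 or 0.1 (minimum mean 0.5 or none), the groups of a comparison alone, a replicate block, and libraries left out. Libraries limit the precision, and depth adds counting error only for the lowest values. In the lists, 1 gene is counted but not reported by name or plotted in the heat map.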

Additional observations from a re-analysis of the deposited data

How the results depend on the processing

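Over 27 alternatives, Fgf21, Creb3l3 and Angptl4 stayed called in EOD against AL, with log2 ranges of 1.85 to 3.13, 0.43 to 0.5 and 1.23 to 1.63 and adjusted p up to 0.0159, 0.00328 and 0.00256. Over all 7 genes and 3 comparisons, 526 of 567 alternatives kept direction and call, 14 lost a call, 21 gained one and 6 changed sign. The sign changes came with libraries left out. Over the 27 alternatives, Gdf15 in IF16 against AL ran from -0.55 to 0.21 and Ahsg from -0.04 to 0.32, neither called. The cause was not tested.

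Members called in EOD against AL were 5 without AL replicates 4 and 5 and 5 with limma on log2 of FPKM plus 1 or plus 0.1, beside 3. In IF16 against AL they were 0 with no filter on low counts and 0 with the compared groups alone, beside 1. In EOD against IF16 they were 0 with no filter, 3 with the compared groups alone, 2 without AL replicates 4 and 5 and 2 with limma on FPKM plus 1, beside 1. With each library left out in turn the counts ran from 3 to 5, 0 to 2 and 0 to 2 in EOD against AL, IF16 against AL and EOD against IF16. Genes called ran from 3913 to 5726, 241 to 619 and 1418 to 3383 in the same order. Genes called in IF16 against AL were 484, and 939 with the DESeq2 Wald test and 261 with limma on FPKM plus 1 with no filter. The cause of these moves was not tested.

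Of 69 results of list genes that met the naming rule, some of them not printed above, 52 kept their call in every alternative. In some alternatives 17 lost it, and none changed sign. The call most often lost was that of Trp53 in IF16 against AL, in 17 of 27 alternatives. These 69 results and the list counts without AL replicates 4 and 5 were chosen after seeing the data.

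Replicate numbers did not pair the libraries: the correlation of deviations between same-numbered libraries was -0.08 to 0.18 in EOD and AL, -0.13 to 0.22 in IF16 and AL and 0 to 0.14 in EOD and IF16, and 1 of 5 libraries correlated best with its own number in each. With the replicate number as a block, 3, 1 and 1 members and 4809, 492 and 2226 genes were called in EOD against AL, IF16 against AL and EOD against IF16.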
